A study of Mus musculus with 15 samples.

Results

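The respiratory chain of the mouse colon was followed through the transcripts of its subunits, those encoded in the nucleus and those encoded in mitochondrial DNA, across control mice, a colorectal cancer model and a treatment group. Members were the rows whose symbol begins with Nduf, Uqcr, Cox4 to Cox8, Atp5 or mt-, or is Sdha, Sdhb, Sdhc or Sdhd. This gave 110 of 22063 rows, of which 97 were nuclear and 13 mitochondrially encoded. The nuclear rows held 87 subunits, 8 assembly factors of complex I, 1 pseudogene and a second row of Atp5o listed at 0. By complex, the 87 nuclear subunits fell into 38 of complex I, 4 of complex II, 8 of complex III, 20 of complex IV (with Ndufa4, Ndufa4l2 and Cox7a2l counted there) and 17 of complex V. Of the mitochondrial genes, 7 belonged to complex I, 1 to complex III, 3 to complex IV and 2 to complex V.

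All mice were wild-type C57BL/6, and the labels give colon as tissue and colon epithelial cells as cell type. The control group was a blank control. The model group received azoxymethane and dextran sulfate sodium (AOM/DSS), a carcinogen and an agent that injures the colon epithelium. The WMW-H group was given the treatment of that name, in a series about Wumei Wan, a herbal formula, and the labels of its libraries do not themselves state that these mice also received AOM/DSS. Each group had 5 libraries of polyadenylated RNA. The labels give no dose, age or sex, and no statement that each library of a group is another animal. Each p-value is therefore a measure of the spread among these libraries alone, which may be technical.

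The respiratory chain passes electrons from NADH (complex I) and succinate (complex II) through complex III to oxygen at complex IV, and the proton gradient so made drives ATP synthesis at complex V. Complex II is built from nuclear genes alone, whereas the other complexes combine nuclear subunits with a few made inside mitochondria from polycistronic mitochondrial transcripts. Colonocytes draw much of their energy from oxidation of butyrate, which feeds electrons into this chain.

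Values are FPKM (fragments counted per kilobase of a transcript, scaled by library size), and the libraries held 16360000 to 21140000 fragments by an estimate from the low values. Changes are differences of mean log2(FPKM + 1), given with their standard error. A gene was called changed at a limma adjusted p under 0.05 (Benjamini-Hochberg over the 12917 genes that reached 1 FPKM in 5 or more of the 15 libraries). Of the 110 members, 103 passed that filter. WMW-H replicate 3 stood apart from the other 4 WMW-H libraries at many members, so some values are also given without it. Pancreatic enzyme transcripts were present in all libraries and moved with the groups. The summed level of 10 acinar markers was 20723 to 21256 FPKM in control libraries, 4690 to 4788 in those of the model and 8386 to 8897 with WMW-H, with Prss1 at or near 0. Of 8 male accessory gland markers, 6 had a row, and their sum was 2571 to 2708 FPKM in model and at most 4.19 elsewhere. The 10 colon epithelium markers summed to 10073 to 10263, 8440 to 8468 and 8888 to 9076 FPKM, with each of them detected. Single markers did not all follow that sum. In model against control 3 were called higher (Cdh1, Epcam and Krt18) and 7 lower, beside 45.5% and 20.6% of all genes. The 8 smooth muscle markers summed to 2024 to 2086 FPKM in control, 2044 to 2110 in model and 2035 to 2150 with WMW-H. Of 6 Paneth cell markers, 5 were called higher in model than in control and 1 lower. Leaving pancreas, accessory gland and Paneth cell genes out of the library total kept the sign of the median change of the nuclear and of the mitochondrial set in all 3 comparisons. The part of such transcripts in the changes was not tested otherwise. In bulk RNA, fewer cells of a type and less RNA per cell cannot be told apart.

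The sequences of the mitochondrial genes bear on how they were counted. Where coding sequences overlap, a fragment from the shared bases fits both genes, and the library kit does not mark strand. The following ends of GENCODE M21 transcripts show the 3 overlaps between neighbours on the same strand, with the shared bases in capitals (43 bases for mt-Atp8 and mt-Atp6, 7 for mt-Nd4l and mt-Nd4, 1 for mt-Atp6 and mt-Co3).
mt-Atp8 last 60 bases: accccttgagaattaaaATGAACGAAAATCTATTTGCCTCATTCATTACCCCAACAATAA
mt-Atp6 first 60 bases: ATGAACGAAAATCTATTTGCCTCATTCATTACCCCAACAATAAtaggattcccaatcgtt
mt-Nd4l last 40 bases: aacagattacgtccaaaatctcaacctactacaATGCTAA
mt-Nd4 first 40 bases: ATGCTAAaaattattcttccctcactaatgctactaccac
mt-Atp6 last 40 bases: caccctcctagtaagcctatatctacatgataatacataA
mt-Co3 first 40 bases: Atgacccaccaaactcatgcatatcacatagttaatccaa
A further 14 bases are shared by mt-Nd5 and mt-Nd6, which lie on opposite strands, so their reads cannot be told apart there. As strand is not marked, reads from the opposite strand could also be counted to mt-Nd6 outside these bases. The overlap weighs most on mt-Atp8, which is 204 bases long and rested on 1700 to 3700 fragments per library. For comparison, mt-Co1 rested on 323500 to 721500. Nuclear copies of mitochondrial DNA and processed pseudogenes of nuclear subunits can also share reads with these genes, and how the authors assigned such reads is not given in the sources used here.

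The mitochondrially encoded transcripts took overlapping shares of the library in control and model and a higher share in WMW-H. Their sum as a share of the library total was 8.27%, 8.14%, 8.09%, 8.29% and 8.25% in control replicates 1 to 5, and 8.37%, 8.17%, 8.19%, 8.21% and 8.27% in model. In WMW-H it was 12.2%, 12.4%, 15.3%, 12.4% and 12.1%. Every WMW-H library lay above every other library, with replicate 3 highest, while control and model overlapped. Group means were 8.21% ± 0.0895 (SD, n = 5), 8.24% ± 0.0811 and 12.9% ± 1.38, and WMW-H without replicate 3 was 12.2% ± 0.153.

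The 87 nuclear subunits together took 2.88% ± 0.052 of the library total in the control group, 2.69% ± 0.0427 in the model group and 2.70% ± 0.12 with WMW-H. That total holds the mitochondrially encoded genes, so their higher share in WMW-H lowers the nuclear share there. With those genes out of the total, the median nuclear change in WMW-H against model was 0.12, where the values as deposited gave 0.10. All 5 model libraries (2.65% to 2.75%) lay below all 5 control libraries (2.85% to 2.97%). The ratio of mitochondrially encoded to nuclear FPKM was 2.85 ± 0.0695 in control, 3.06 ± 0.0674 in model and 4.78 ± 0.754 with WMW-H (4.44 ± 0.0755 without replicate 3). The 3 groups did not overlap in this ratio. These sums are descriptions and carry no test.

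**Figure D1:**
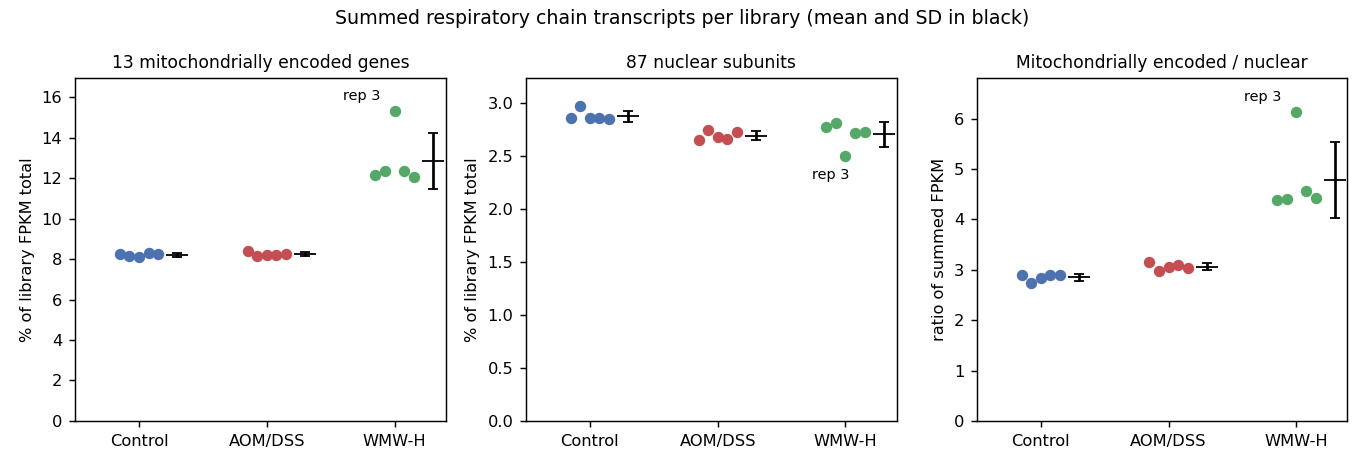
Summed FPKM of the 13 mitochondrially encoded genes (left) and of the 87 nuclear subunits (middle) as a percent of each library's total, and their ratio (right), for 5 libraries per group; black lines are the mean and SD. Mitochondrially encoded shares were 8.09% to 8.37% in control and model and 12.1% to 15.3% in WMW-H, whereas nuclear shares ran from 2.50% to 2.97%.

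Complexes differed in this ratio. In complex IV it went from 5.89 ± 0.164 in control and 6.19 ± 0.148 in model to 10.7 ± 1.51 in WMW-H. In complex I the ratio was 3.03 ± 0.0794, 3.28 ± 0.0716 and 4.99 ± 0.944, and in complex III, where mt-Cytb is the single mitochondrial gene, 1.67 ± 0.0575, 1.85 ± 0.043 and 2.602 ± 0.495. In complex V it was 1.12 ± 0.0511, 1.14 ± 0.0453 and 1.21 ± 0.186, with the WMW-H libraries overlapping both other groups. Without replicate 3, the WMW-H ratios were 10.04 in complex IV, 4.57 in complex I, 2.38 in complex III and 1.13 in complex V.

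Against model, 11 of the 13 mitochondrial genes were called higher in WMW-H and none lower by limma, also at an unadjusted p under 0.05, where 25.9% of all genes tested were called higher and 40.9% lower. Their median change was 0.64 on the log2 scale, against -0.07 for all genes. The 11 called genes were those of complexes I, III and IV, and in each of them all 5 WMW-H libraries lay above all 5 model libraries (18.8% of all genes). Correcting each library for transcript GC content, or quantile normalization, kept 11 called higher but added 1 called lower, mt-Atp6, whereas with size factors mt-Atp6 was called higher and the count was 12. Without WMW-H replicate 3 the counts were again 11 and 0.

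Mt-Co1 (ENSMUSG00000064351) encodes the catalytic subunit of cytochrome c oxidase, complex IV, and had the highest FPKM among the members. Its values were 12252, 12014, 12078, 12155 and 12137 FPKM in control, 12606, 12317, 12409, 12551 and 12541 in model, and 23325, 23725, 28478, 23893 and 23263 in WMW-H. The WMW-H libraries stood well above the rest, which lay within a narrow range, with every model library above every control library. The change in WMW-H was 0.97 (SE 0.04, limma adjusted p = 3.32e-12) against model and 1.01 against control (adjusted p = 2.17e-12), with 1 WMW-H library, replicate 3, above the other 4. Without that library the change against model was 0.92, and with quantile normalization 0.58, both called. Quantile normalization gives each library the same values by rank. For genes of high FPKM, such as mt-Co1 and mt-Atp6, this can narrow the spread within a group. A call under that scaling therefore says little of the spread among libraries for such genes.

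Mt-Nd3 (ENSMUSG00000064360), a membrane subunit of complex I, had the largest change of the mitochondrial genes in both steps in the values as deposited. It read 587, 704, 555, 600 and 587 FPKM in control, 335, 367, 325, 330 and 401 in model, and 925, 1011, 1089, 930 and 973 in WMW-H. The groups were separate, with model lowest and WMW-H highest. Mt-Nd3 fell by 0.79 in model against control (SE 0.07, limma adjusted p = 1.47e-08) and rose by 1.49 in WMW-H against model (adjusted p = 5.31e-12). It rested on 2100 to 6500 fragments per library and has a low GC content, 33.1%. After the GC correction the change in model was -0.24 (adjusted p = 0.00443), smaller in size than those of mt-Nd6 (0.51), mt-Nd2 (0.47), mt-Nd1 (0.46) and mt-Nd4 (0.44).

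The other 2 mitochondrial subunits of complex IV both rose in WMW-H against model. Mt-Co3 (ENSMUSG00000064358) was 5495, 5393, 5274, 5431 and 5383 FPKM in control, 4471, 4374, 4415, 4443 and 4494 in model, and 7037, 7378, 8376, 7211 and 7190 in WMW-H. Its groups did not overlap, with a change of -0.28 in model (SE 0.04, limma adjusted p = 2.17e-06) and 0.74 in WMW-H against model (adjusted p = 1.2e-11). The change of mt-Co3 in model turned to 0.07 with the GC correction (adjusted p = 0.133) and 0.03 with quantile normalization (adjusted p = 0.268), and the WMW-H change against model became 0.46 and 0.23, both called. Mt-Co2 averaged 6865 ± 56.1, 6930 ± 110 and 9995 ± 1495 FPKM, a change of 0.01 in model (adjusted p = 0.867) and of 0.52 in WMW-H against model (adjusted p = 2.28e-06). With the GC correction mt-Co2 was called higher in model (0.37, limma adjusted p = 0.000139), and its WMW-H change was 0.24 (adjusted p = 0.00643).

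Both mitochondrial genes of complex V, the ATP synthase, missed the threshold in WMW-H against model and against control in the values as deposited. Mt-Atp6 (ENSMUSG00000064357), which forms part of the proton channel, read 5275, 5426, 5100, 5409 and 5364 FPKM in control, 4990, 4942, 4901, 4734 and 4964 in model, and 4889, 5011, 6154, 5062 and 4979 in WMW-H. Apart from replicate 3, the WMW-H libraries lay among or just above those of model. The change against model was 0.08 (95% interval -0.02 to 0.18, limma adjusted p = 0.128). Against control it was -0.03 (adjusted p = 0.59), and without WMW-H replicate 3 it became -0.09 and was called (adjusted p = 0.000616). Scaling changed the call in both directions. Against model mt-Atp6 was called lower with the GC correction (-0.19, limma adjusted p = 0.00534) and quantile normalization (-0.37, adjusted p = 2.73e-10, with values set by rank). With size factors it was called higher (0.16, adjusted p = 0.0116), and against control it was called higher with the GC correction (0.15, adjusted p = 0.0237). Mt-Atp8 changed by 0.22 against model (95% interval -0.12 to 0.57, adjusted p = 0.238), and its control values alone ran from 590 to 977 FPKM.

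As a share of the mitochondrial sum, mt-Atp6 went from 12.2% ± 0.214 in control and 11.6% ± 0.162 in model to 7.66% ± 0.13 in WMW-H. Mt-Co1 went from 27.9% ± 0.268 and 29.6% ± 0.313 to 36.03% ± 0.77. The ratio of mt-Co1 to mt-Atp6 was 2.32, 2.21, 2.37, 2.25 and 2.26 in control, 2.53, 2.49, 2.53, 2.65 and 2.53 in model, and 4.77, 4.73, 4.63, 4.72 and 4.67 in WMW-H. Replicate 3 did not stand apart in this ratio. Mt-Co3, which directly follows mt-Atp6 in the transcript, stood at 1.015 ± 0.0212, 0.905 ± 0.0203 and 1.43 ± 0.0413 times its level. A ratio within a library shows unequal change and not that either gene kept its level.

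**Figure D2:**
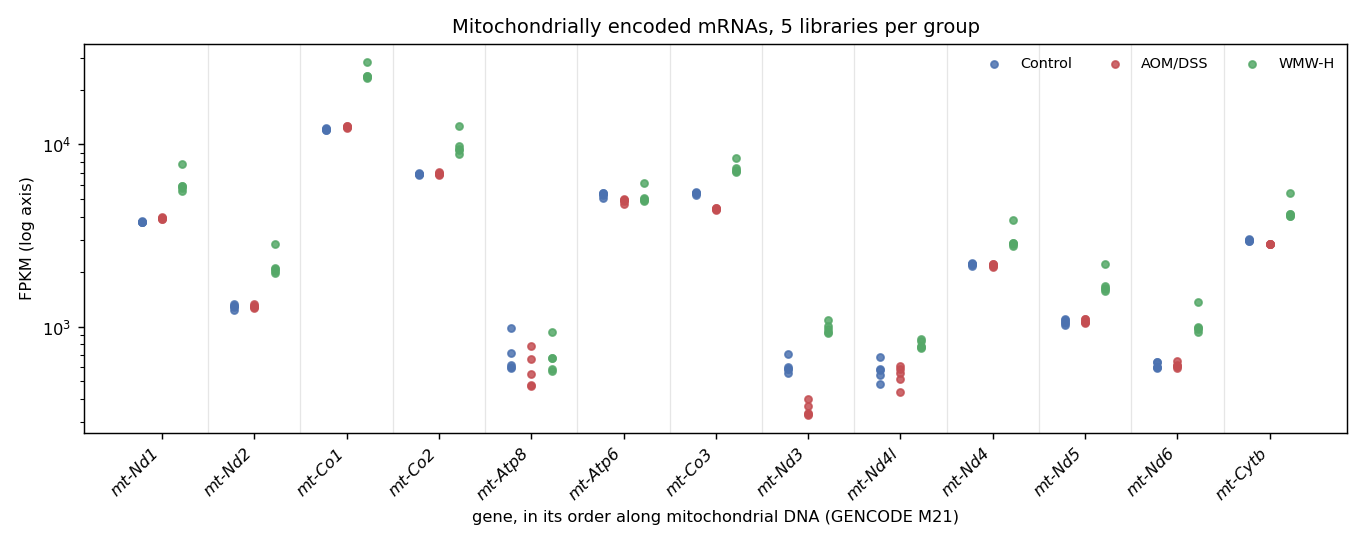
FPKM (log axis) of the 13 mitochondrially encoded mRNAs in each of 5 libraries per group, ordered along mitochondrial DNA. WMW-H libraries lie above model at the 11 genes of complexes I, III and IV and overlap model at mt-Atp6 and mt-Atp8, and mt-Nd3 is lowest in model.

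The remaining complex I genes (mt-Nd1, mt-Nd2, mt-Nd4, mt-Nd4l, mt-Nd5, mt-Nd6) changed by 0.48 to 0.76 in WMW-H against model. Mt-Nd1, for instance, was 3753 ± 18.8, 3939 ± 49.3 and 6190 ± 934 FPKM, a change of 0.64 against model (SE 0.06, limma adjusted p = 1.62e-07). Mt-Cytb, the cytochrome b of complex III, was 2978 ± 25.3, 2842 ± 9.81 and 4363 ± 589 FPKM, a change of 0.61 (adjusted p = 8.74e-08). At both genes replicate 3 was the highest library, at 7845 and 5414 FPKM, and without it their changes were 0.55 and 0.53. After the GC correction the 6 complex I genes and mt-Cytb changed by 0.21 to 0.50, all called, and with quantile normalization mt-Nd1 changed by 0.15.

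In model against control, no mitochondrial gene was called higher by limma, none at an unadjusted p under 0.05 either, and 3 were called lower (mt-Nd3, mt-Co3 and mt-Atp6), beside 45.5% of all genes called higher and 20.6% lower. The median change was -0.02, against 0.12 for all genes. All model libraries lay above all control libraries at 2 of the 13 genes and below them at 4, beside 36.9% and 16.0% of all genes. The calls depended on the scaling. The GC correction gave 9 higher and 1 lower, quantile normalization 6 and 1, and size factors 0 and 5. They also depended on the libraries in the fit: with the compared groups alone, 2 were called higher (mt-Co1 and mt-Nd1) and 4 lower. Mt-Atp6 was called narrowly (change -0.12, adjusted p = 0.0412), and the call was lost without any 1 control or model library except control replicate 3 (adjusted p = 0.0513 to 0.0914). Its change turned positive with the GC correction (0.33) and with quantile normalization (0.34).

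Among the 82 nuclear subunits tested, 47 were called lower in model and 3 higher. Their median change was -0.14, in contrast to 0.12 over all genes, and 38 had all model libraries below all control libraries (16.0% of all genes), while 2 had them all above (36.9%). The median was negative in each of the complexes I to V under every scaling tried. Library scaling moved the whole distribution: with size factors the median of all genes was 0.00 and calls split 3924 higher to 3979 lower, and with quantile normalization it was -0.02 with 3765 to 4167, where the values as deposited gave 5881 to 2658. With size factors, 69 nuclear subunits were lower, and with quantile normalization 51 were lower and 4 higher.

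In WMW-H against model, 36 of the 82 were called higher and 17 lower, and the median change was 0.10. Separate groups were found for 21 above and 12 below (18.8% and 32.3% of all genes). The nuclear median thus lay 0.17 above that of all genes, and the mitochondrial median lay 0.54 above the nuclear one (0.43 without WMW-H replicate 3, 0.25 after the GC correction). Over all genes the calls split 3347 higher to 5286 lower, or 4194 to 4269 with quantile normalization. Counts for nuclear subunits ranged from 28 higher and 21 lower when values were rescaled to a common total, to 52 and 8 with size factors.

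Against control, WMW-H had 18 nuclear subunits called higher and 31 lower (35.4% and 24.1% of all genes tested), and a median change of -0.05. Separate groups were found for 9 above and 26 below (25.3% and 17.0% of all genes). The sign of this median turned (to 0.02, with 28 called higher and 25 lower) when the mitochondrial genes were left out of the library total. For all genes the calls split 4570 to 3116, or 5630 to 2339 with that total, 3692 to 3865 when pancreas, accessory gland and Paneth cell genes were left out, and 3636 to 3943 with quantile normalization. The 11 mitochondrial genes of complexes I, III and IV were all higher in WMW-H than in control, with a median over the 13 of 0.54 and separate groups at each of the 11. The mitochondrial count of 11 was found with each scaling tried apart from the GC correction, which gave 12. All 3 comparisons share libraries, so they are not independent.

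**Figure D3:**
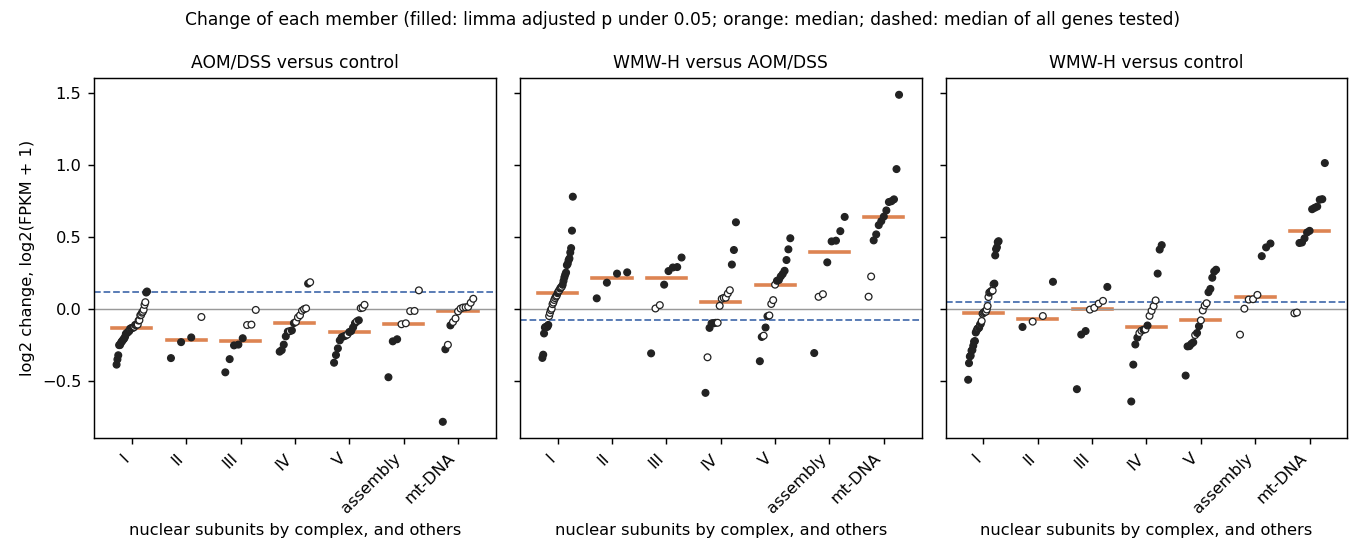
Log2 change of each tested member in the 3 comparisons, with nuclear subunits split by complex, the complex I assembly factors and the mitochondrially encoded genes (mt-DNA); filled points passed a limma adjusted p of 0.05, orange bars are medians and the dashed line is the median of all genes tested. Nuclear medians lie below 0 in model against control, and the mitochondrial median stands at 0.64 in WMW-H against model.

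Complex I has 7 nuclear core subunits, which carry the flavin and iron-sulfur clusters, and 30 tested accessory subunits. Called counts by complex and by list are to be read beside the shares over all genes tested, 45.5% higher and 20.6% lower in model against control and 25.9% and 40.9% in WMW-H against model. In model, 6 of the 7 core subunits fell and 1 rose, and 14 of 30 accessory subunits fell and 1 rose. From model to WMW-H, 2 core subunits rose and 4 fell, while 14 accessory subunits rose and 3 fell.

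Ndufv1 (ENSMUSG00000037916) and Ndufv2 (ENSMUSG00000024099) together form the site where NADH hands over its electrons, and they moved apart. Ndufv1 was 120, 122, 116, 112 and 116 FPKM in control, 98.2, 109, 101, 104 and 106 in model, and 83.1, 86.3, 73.2, 89.5 and 83.0 in WMW-H. Ndufv2 was 99.3, 107, 95.8, 98.2 and 98.9 FPKM in control, 75.9, 82.6, 80.4, 73.9 and 77.2 in model, and 132, 142, 125, 136 and 138 in WMW-H. Both were lower in all model libraries than in all control libraries, but in WMW-H Ndufv1 was lower still and Ndufv2 was the highest of the 3 groups.

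Ndufv1 fell by 0.17 in model (SE 0.04, limma adjusted p = 0.00238) and by a further 0.32 in WMW-H against model (adjusted p = 7.53e-06). For Ndufv2 the changes were -0.35 (SE 0.04, adjusted p = 4.09e-07) and 0.78 (adjusted p = 1.98e-11). The ratio of Ndufv2 to Ndufv1 was 0.853 ± 0.0223 in control, 0.753 ± 0.0365 in model and 1.62 ± 0.0688 with WMW-H. Ndufv2 has a transcript GC content of 44.5% and Ndufv1 of 56.6%, and after the GC correction the WMW-H changes were 0.51 and -0.15 (adjusted p = 5.27e-09 and 0.012), and the change of Ndufv2 in model was -0.20. With size factors the change of Ndufv1 in model was -0.30.

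Ndufs1, the large iron-sulfur core subunit, went from 59.5 ± 3.01 FPKM in control to 45.2 ± 0.834 in model and 56.1 ± 3.93 in WMW-H. This was a change of -0.39 (limma adjusted p = 7.13e-07), then 0.30 (adjusted p = 1.29e-05), and WMW-H against control was not called (-0.08, adjusted p = 0.11). That last difference was called lower with the GC correction (-0.14, limma adjusted p = 0.0156), size factors (-0.14, adjusted p = 0.00792) and quantile normalization (-0.12, adjusted p = 0.0193). It was also called with pancreas, accessory gland and Paneth cell genes out of the total (-0.15, adjusted p = 0.0114).

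Accessory subunits Ndufc2, Ndufb4 and Ndufa6 were higher in WMW-H than in both other groups. Ndufc2, of the membrane arm, was 72.6, 77.3, 73.3, 70.9 and 76.8 FPKM in control, 65.6, 71.5, 67.9, 72.7 and 73.2 in model, and 109, 107, 105, 102 and 91.7 in WMW-H. WMW-H stood clear of the others, and the change against model was 0.54 (SE 0.04, limma adjusted p = 1.18e-08). Ndufb4 and Ndufa6 changed by 0.42 and 0.35 (adjusted p = 5.25e-06 and 7.62e-06). Ndufa9 followed another course: it was 95.1 ± 2.74 FPKM in control, 75.8 ± 1.83 in model and 77.7 ± 4.94 with WMW-H, with a fall of 0.32 in model (adjusted p = 9.73e-07) and a change of 0.03 from model to WMW-H (adjusted p = 0.467). Without WMW-H replicate 3 that second change was 0.07 and was called (limma adjusted p = 0.023).

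Complex I is put together with the help of assembly factors that are not part of the finished enzyme. Of the 8 whose symbols begin with Ndufaf, 3 were lower in model and 0 higher (limma; the counts were the same at an unadjusted p under 0.05), and 5 were higher and 1 lower in WMW-H against model. Ndufaf4 was 5.21 ± 0.543 FPKM in control, 3.46 ± 0.324 in model and 5.48 ± 0.37 with WMW-H, with changes of -0.48 (adjusted p = 1.05e-05) and 0.54 (adjusted p = 2.57e-06), which were -0.24 and 0.25 after the GC correction, both called. Ndufaf2, which acts late in assembly, was 8.08 ± 0.691, 6.83 ± 0.478 and 11.2 ± 0.844 FPKM, and rose by 0.64 in WMW-H against model (adjusted p = 1.09e-07). Ndufaf3 went the other way in that step, with a change of -0.31 (adjusted p = 0.00289) that was -0.17 after the GC correction (adjusted p = 0.0898).

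Complex II, succinate dehydrogenase, links the chain to the tricarboxylic acid cycle. In model, 3 of its 4 genes fell, and Sdhd did not pass the test (change -0.06, limma adjusted p = 0.13). All 4 rose in WMW-H against model, the smallest change being that of Sdha, 0.07 (adjusted p = 0.00526), which was no longer called after the GC correction (0.02, adjusted p = 0.465), as TPM (0.02, adjusted p = 0.429) or with pancreas, accessory gland and Paneth cell genes out of the total (0.03, adjusted p = 0.186). Sdhb (ENSMUSG00000009863), the iron-sulfur subunit, was 172, 182, 174, 172 and 164 FPKM in control, 131, 136, 140, 135 and 139 in model, and 170, 171, 137, 164 and 172 in WMW-H. Apart from replicate 3, which lay within the model range, the WMW-H libraries were near the control level. Sdhb fell by 0.34 in model (SE 0.05, adjusted p = 1.42e-05) and rose by 0.25 in WMW-H against model (adjusted p = 0.000304), or by 0.31 without replicate 3 and 0.38 after the GC correction. Against control, Sdhd was higher in WMW-H (0.19, adjusted p = 9.19e-05) and Sdha lower (-0.13, adjusted p = 5.75e-05).

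In complex III, 5 of 8 nuclear subunits fell in model and none rose (limma; 7 and 0 at an unadjusted p under 0.05). From model to WMW-H, 5 rose and 1 fell. The one that fell was Uqcrc1 (ENSMUSG00000025651), whose product forms the matrix-side core of the complex with that of Uqcrc2 (ENSMUSG00000030884). Uqcrc1 was 286, 293, 296, 297 and 300 FPKM in control, 252, 249, 241, 249 and 247 in model, and 204, 201, 193, 202 and 198 in WMW-H. Uqcrc2 was 173, 179, 171, 177 and 177 FPKM in control, 136, 137, 134, 139 and 141 in model, and 179, 182, 166, 174 and 180 in WMW-H. Uqcrc1 stepped down from control to model to WMW-H with no overlap, whereas Uqcrc2 was lowest in model, with control and WMW-H overlapping.

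For Uqcrc1 the changes were -0.25 in model (SE 0.02, limma adjusted p = 1.43e-08) and -0.31 in WMW-H against model (adjusted p = 1.14e-09). Uqcrc2 fell by 0.35 in model (adjusted p = 2.08e-09) and rose by 0.36 from model to WMW-H (adjusted p = 2.29e-09), and its difference from control was 0.01 (95% interval -0.05 to 0.06). That last difference was called lower with the GC correction (-0.12, limma adjusted p = 0.000538) and higher with the total without mitochondrial genes (0.08, adjusted p = 0.00565). The GC contents were 56.8% and 46.9%. After the GC correction the WMW-H changes against model were -0.13 and 0.16, both called (adjusted p = 2.23e-05 and 2.36e-05). Uqcrb, a small accessory subunit, went from 240 ± 9.03 to 177 ± 4.82 and 216 ± 10.7 FPKM, and its rise of 0.29 in WMW-H against model (adjusted p = 1.13e-06) was 0.00 after the GC correction (adjusted p = 0.985). Uqcrfs1, the Rieske iron-sulfur protein, was 180 ± 5.66, 151 ± 3.9 and 185 ± 20.3 FPKM, and its difference between WMW-H and control, 0.04 (limma adjusted p = 0.619), was 0.11 and called without replicate 3 (adjusted p = 0.00119).

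**Figure D4:**
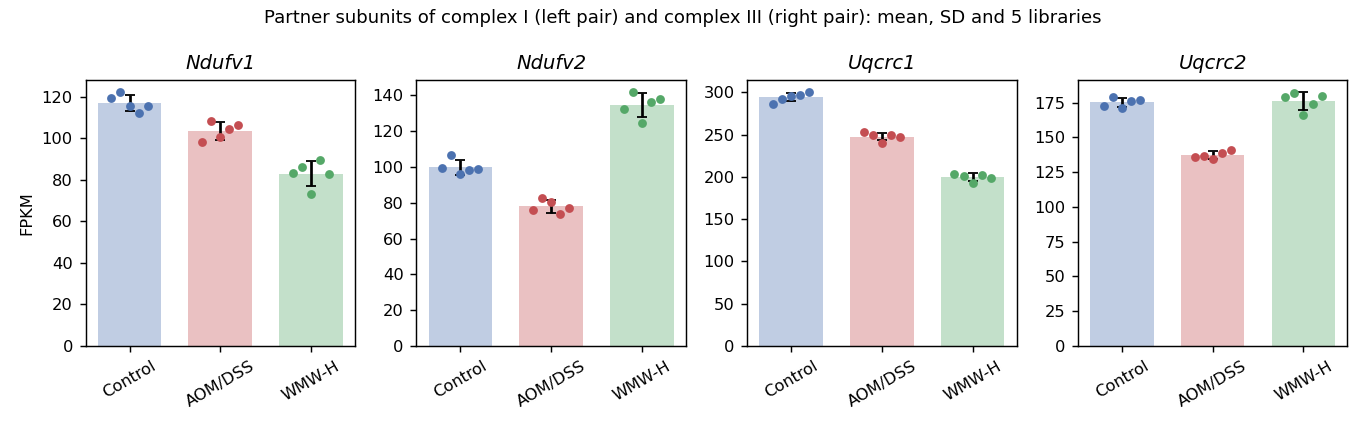
FPKM of the partner subunits Ndufv1 and Ndufv2 of complex I and Uqcrc1 and Uqcrc2 of complex III, as the mean (bars), SD (lines) and 5 libraries per group (points). All 4 are lower in model than in control, and in WMW-H Ndufv1 and Uqcrc1 are lower than in model while Ndufv2 and Uqcrc2 are higher.

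Complex IV had 16 tested nuclear subunits, of which 7 fell and 1 rose in model. From model to WMW-H 3 rose and 5 fell, where 25.9% and 40.9% of all genes did, with a median of 0.04 that turned to -0.01 when values were rescaled to a common total. The fallers included Cox4i1, Cox6a1 and Cox8a, which are abundant and GC-rich, with GC contents of 57.6%, 58.8% and 58.6%. Cox4i1 (ENSMUSG00000031818) was 742, 781, 755, 732 and 734 FPKM in control, 721, 769, 727, 739 and 754 in model, and 685, 696, 658, 671 and 674 in WMW-H. Control and model overlapped, and WMW-H lay below both. Its change against model was -0.13 (SE 0.02, limma adjusted p = 9.75e-05) and turned to 0.06 after the GC correction (-0.06 with size factors and -0.23 with quantile normalization), as did those of Cox6a1 (from -0.10 to 0.12) and Cox8a (from -0.10 to 0.12). With size factors Cox6a1 and Cox8a were not called (-0.02 each, limma adjusted p = 0.534 and 0.374).

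The 3 risers of complex IV were Cox7c, Cox6c and Cox7b. Cox7c (ENSMUSG00000017778) was 215, 269, 220, 213 and 201 FPKM in control, 191, 210, 197, 184 and 215 in model, and 305, 328, 309, 286 and 287 in WMW-H. WMW-H was above both other groups, which overlapped, and the change against model was 0.60 (SE 0.06, limma adjusted p = 3.88e-07), or 0.37 after the GC correction (adjusted p = 9.39e-05). Cox6c changed by 0.41 (adjusted p = 0.000122) with overlapping groups, and Cox7b by 0.31 (adjusted p = 2.06e-05), which became 0.02 after the GC correction (adjusted p = 0.716). The ratio of mt-Co1 to Cox4i1 was 16.2 ± 0.518 in control, 16.8 ± 0.545 in model and 36.3 ± 3.95 with WMW-H (34.6 without replicate 3).

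Several subunits of complex IV have a second isoform, often used in other tissues, and these stayed minor. Cox4i2, induced by low oxygen in lung, made up 0.199% ± 0.0446, 0.196% ± 0.0786 and 0.188% ± 0.0641 of the Cox4i1 and Cox4i2 pair. Cox7a1, of heart and skeletal muscle, was 9.81% ± 0.599, 8.97% ± 1.68 and 9.06% ± 0.768 of its pair with Cox7a2. Cox6b2, a testis isoform, made up 2.04% ± 0.374, 2.19% ± 0.18 and 1.29% ± 0.336 of its pair with Cox6b1 and was lower in WMW-H than in model (log2 change -0.58, limma adjusted p = 0.00132). Cox7b2 and Cox8c were listed at 0 in all libraries, and Cox6a2 and Cox8b averaged under 1 FPKM in each group. The 5 spermatogenic markers summed to at most 0.16 FPKM. Cox7a2l was higher in model than in control in all libraries (146 ± 1.86 against 129 ± 3.6 FPKM). Its change was 0.18 (limma adjusted p = 0.00432), but with size factors this was 0.04 and not called.

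In complex V, 12 of 17 nuclear subunits fell in model and 0 rose (limma; also 0 at an unadjusted p under 0.05), and from model to WMW-H 8 rose and 4 fell. Atp5b (ENSMUSG00000025393), the catalytic beta subunit, was 1078, 1058, 1071, 1058 and 1051 FPKM in control, 955, 971, 989, 974 and 971 in model, and 896, 899, 850, 898 and 899 in WMW-H. The groups formed descending steps without overlap, of -0.13 in model (SE 0.02, limma adjusted p = 1.19e-05) and -0.13 again in WMW-H against model (adjusted p = 1.13e-05). The first step turned to 0.20 with quantile normalization, and the second was -0.05 with size factors and -0.28 with quantile normalization. Atp5d, the delta subunit of the central stalk, fell by 0.36 in WMW-H against model (adjusted p = 5.04e-09). Its transcript is the most GC-rich of those described, at 61.1%, and the fall was 0.11 after the GC correction (adjusted p = 0.00171).

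Atp5pb and Atp5j encode subunits of the peripheral stalk, which holds the catalytic head still, and both rose from model to WMW-H. Of the other stalk genes, Atp5h changed by 0.24 in that step (limma adjusted p = 3.88e-07) and Atp5o by 0.03 (adjusted p = 0.204), and Atp5o was called higher with the GC correction (0.13, adjusted p = 0.000101). Atp5pb (ENSMUSG00000000563) was 169, 175, 171, 177 and 175 FPKM in control, 134, 129, 134, 132 and 138 in model, and 182, 190, 191, 187 and 190 in WMW-H. Model was lowest and WMW-H highest without overlap, with changes of -0.37 in model (SE 0.02, limma adjusted p = 1.3e-10) and 0.49 in WMW-H against model (adjusted p = 6.89e-12). After the GC correction these were -0.23 and 0.22, both called, and the difference of Atp5pb between WMW-H and control went from 0.12 (adjusted p = 0.000276) to -0.01 (adjusted p = 0.805). Atp5j rose by 0.41 in WMW-H against model (adjusted p = 4.52e-09), from 85.3 ± 2.88 to 114 ± 3.87 FPKM. Its GC content of 53.7% is near the middle of the subunits, and after the correction the rise was 0.51.

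The ring of c subunits is encoded by Atp5g1, Atp5g2 and Atp5g3, whose mature proteins are alike. Atp5g1 made up 32.2% ± 0.77 of the FPKM of the trio in control, 29.2% ± 1.02 in model and 31.5% ± 1.44 with WMW-H. For Atp5g2 the shares were 20.1% ± 0.39, 23.3% ± 0.513 and 20.98% ± 1.38, and for Atp5g3 47.7% ± 0.762, 47.5% ± 0.849 and 47.5% ± 2.3. Atp5g1 fell in model by 0.32 (limma adjusted p = 1.17e-07), whereas the change of Atp5g2 was 0.03 (adjusted p = 0.512).

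Nuclear subunits that rose in WMW-H tended to have a lower GC content than those that fell. Across the 82, the change against model and transcript GC content had a Spearman rho of -0.69 and a Pearson r of -0.67. Over 12899 genes the values were -0.55 and -0.38. These are correlations across genes of the same libraries, which are not independent replicates. Among the 41 with the lower GC contents (42.0% to 52.5%), 26 were called higher and 2 lower, against 38.2% and 25.4% of all genes in that range. Among the 41 with the higher ones (52.5% to 61.1%), 10 were higher and 15 lower, against 7.6% and 64.2%.

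The mitochondrial genes lie lower on that scale, between 31.9% and 41.1% GC. Among 596 other tested genes in that range, the median change in WMW-H against model was 0.18 with 49.0% called higher, below the mitochondrial median of 0.64. In model against control those genes had a median of -0.19, below the mitochondrial median of -0.02, and all genes showed a rho of 0.27 with GC, against 0.09 for the nuclear subunits. Few genes share the lowest GC contents: 83 tested genes lay between 34% and 38%, so the correction is least sure for the mitochondrial genes. Whether GC content relates to library preparation or to the genes themselves was not tested.

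**Figure D5:**
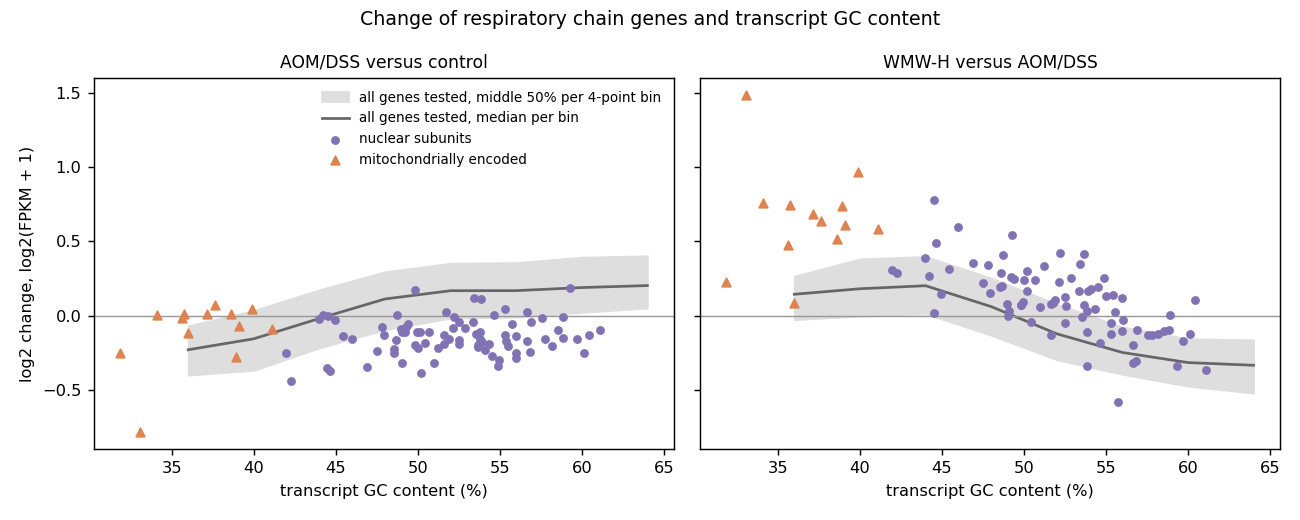
Log2 change against transcript GC content (%) in model against control (left) and WMW-H against model (right); circles are the 82 nuclear subunits, triangles the 13 mitochondrially encoded genes, and the line and band are the median and interquartile range of all tested genes in 4-point bins. On the right the subunits slope downwards with GC as all genes do (rho -0.69 and -0.55). There mt-Nd1, mt-Nd5, mt-Co1, mt-Co2, mt-Co3, mt-Cytb and mt-Nd4l lie above the band. The band starts at 36% GC, and the other mitochondrial genes lie to the left of its start.

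Promoter letters were searched for factors tied to this gene set. NRF1 and GABP (also called NRF2) are transcription factors known for binding promoters of respiratory genes. RefSeq windows of GRCm38.p6, 250 bases before to 50 after a start site, were found for 70 of the 87 nuclear subunits (75 windows). The NRF1 letters, GCGCA and GCGC with any 1 base between them, on either strand, were in 24.0% of these windows, in 9.3% of the windows of tested genes and in 4.6% of all windows. For the GABP letters CCGGAAG the shares were 22.7%, 16.5% and 8.9%, for the ERR half-site AAGGTCA 10.7%, 3.3% and 4.7%, and for the YY1 letters AAGATGG 14.7%, 7.0% and 6.3%. A match describes letters and not a bound site. The 4 stretches below, read on the gene's strand, were chosen to show the NRF1 letters (capitals) in 2 subunits called higher and 2 called lower in WMW-H against model.
Ndufb4 chr16:37654369-37654468 (minus strand): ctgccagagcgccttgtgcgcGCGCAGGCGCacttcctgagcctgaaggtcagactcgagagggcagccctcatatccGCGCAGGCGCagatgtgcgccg
Sdhd chr9:50603874-50603973 (minus strand): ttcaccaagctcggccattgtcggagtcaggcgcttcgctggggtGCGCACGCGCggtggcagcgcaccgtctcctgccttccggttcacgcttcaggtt
Atp5g2 chr15:102671048-102671147 (minus strand): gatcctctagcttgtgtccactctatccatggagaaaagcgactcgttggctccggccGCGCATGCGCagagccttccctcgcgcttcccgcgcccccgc
Ndufa11 chr17:56717657-56717756 (plus strand): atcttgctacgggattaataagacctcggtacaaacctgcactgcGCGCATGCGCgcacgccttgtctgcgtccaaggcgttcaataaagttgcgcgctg
Ndufb4 rose by 0.42 and Sdhd by 0.24 in that comparison, while Atp5g2 fell by 0.20 and Ndufa11 by 0.12 (limma adjusted p = 5.25e-06, 4.07e-06, 0.000125 and 0.00502). After the GC correction Atp5g2 was no longer called (-0.02, adjusted p = 0.635) and Ndufa11 was called higher (0.08, adjusted p = 0.0336). Among tested subunits with a window, 11 of 17 with the NRF1 letters and 30 of 51 without fell in model, beside 20.6% of all genes. In WMW-H against model, 9 of the 17 and 20 of the 51 rose, beside 25.9% of all genes.

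Genes that work beside the chain were read from fixed lists. Cycs, the cytochrome c that carries electrons from complex III to IV, was 50.3 ± 1.75 FPKM in control, 35.2 ± 1.78 in model and 60.8 ± 1.95 with WMW-H, with changes of -0.50 (limma adjusted p = 1.51e-09) and 0.77 (adjusted p = 8.82e-12). Cyc1, the cytochrome c1 of complex III, was 214 ± 4.56, 172 ± 1.6 and 162 ± 9.46 FPKM, lower in both steps (-0.31 and -0.08, adjusted p = 2.49e-07 and 0.0303). Of 13 enzymes of the tricarboxylic acid cycle, 12 fell in model and 0 rose (limma; 13 and 0 at an unadjusted p under 0.05), with a median of -0.20. From model to WMW-H 8 rose and 4 fell. Suclg2, of succinyl-CoA ligase, was 90.0 ± 1.72, 67.9 ± 0.514 and 88.2 ± 3.06 FPKM (changes -0.40 and 0.37, adjusted p = 2.4e-10 and 9.93e-10).

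Regulators of mitochondrial gene expression did not move as a block. Of 12 tested regulators of mitochondrial biogenesis, 7 were called higher in model and 4 lower, beside 45.5% and 20.6% of all genes. Myc, Hif1a and Yy1 rose by 0.70, 0.32 and 0.30 in model (limma adjusted p = 1.9e-09, 5.26e-08 and 2.2e-06). Ppargc1a and Ppargc1b, coactivators of mitochondrial biogenesis, changed by -0.33 and -0.37 (adjusted p = 0.01 and 5.44e-05). Tfam, which packages mitochondrial DNA and starts its transcription, was 20.4 ± 1.63, 15.4 ± 2.83 and 25.3 ± 1.69 FPKM (changes -0.40 and 0.70, adjusted p = 0.00128 and 5.22e-06). Polrmt, the mitochondrial RNA polymerase, moved oppositely, at 7.26 ± 0.357, 8.31 ± 0.19 and 5.46 ± 0.408 FPKM (changes 0.18 and -0.53, adjusted p = 0.0048 and 5.91e-08). Lrpprc, which stabilises mitochondrial mRNAs, changed by -0.13 and 0.30 (adjusted p = 0.0479 and 0.000134). Changes of genes from the fixed lists are given for the values as deposited only, without the GC correction or other scalings. Of 19 tested assembly factors of complex IV, 2 rose and 4 fell in model, the latter near the 20.6% of all genes, and from model to WMW-H 8 rose and 2 fell.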

How the data were processed

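RNA of mouse colon was sequenced in 15 libraries, 5 per group, after selection of polyadenylated RNA and preparation with a NEBNext Ultra kit (labels' protocols). Tools listed in the submitters' processing notes are RSEM, StringTie 1.3.1, HISAT2, Bowtie2 2.2.8 and fastp 0.18.0, with neither order nor settings, and the build and annotation are not given in the sources used here. The authors deposited 1 table of FPKM values for 22063 rows, with totals of 507895 to 535410 per library. Depth was estimated from the steps between low values in 3328 genes with 1 annotated transcript: at the depth chosen for each library, 88.3% to 95.1% of these values were whole to within 0.1 fragments (20% expected by chance). Whole fragments were not recovered for other genes, so no count model was used. Libraries of a group differed by more than counting noise, which does not show that they came from separate animals. Each was counted as 1 replicate.

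Values were analysed as log2(FPKM + 1), which understates the change of low genes, with limma 3.58.1 in R 4.3.3: 1 fit to all 15 libraries with group means, empirical Bayes with a trend, two-sided tests and Benjamini-Hochberg adjustment over 12917 genes. The step was also run on data simulated from control means, with few genes changed and the same dispersion for all genes. Those data held no library like WMW-H replicate 3, so the run does not cover that case. Length and GC content of transcripts came from GENCODE M21, in which all 110 members were found, and promoters from RefSeq. Summaries used Python 3.11.15 with pandas 2.3.3, numpy 2.4.6 and matplotlib 3.10.9.

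Members and lists were chosen with earlier results of these data known. Named were all mitochondrial genes, Sdha to Sdhd, isoform pairs and, per complex, the 3 called members with the largest change in each direction in model versus control and WMW-H versus model, with Cyc1, Cycs and up to 3 genes per list with the smallest p. Ndufa11, Atp5h, Atp5o, Polrmt, Lrpprc, Ppargc1a, Ppargc1b and Pprc1 fall outside that rule and were named after their values were seen, and the ratios between genes were also chosen then. A member that the rule takes is not reported here; it stayed in the fits and in the counts over sets. Alternatives were other scalings, a pseudocount of 0.1, no filter, a replicate block, fits of the compared groups alone and leaving out each library of the compared groups. The GC correction, a lowess trend on GC content removed per library, was added after seeing the data.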

Additional observations from a re-analysis of the deposited data

Results flagged for a closer look

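In each group of 5 libraries the highest or lowest value of the 61 named members was compared with its neighbours by Dixon's ratio (critical value 0.71), which chance exceeds in about 1 in 20 groups. Of 173 groups, 23 stood out, and 18 of these were in WMW-H replicate 3. There, 11 mitochondrial genes had 1 library far above the other 4: mt-Co1 at 28478 FPKM (others 23263 to 23893), mt-Co2 at 12600, mt-Co3 at 8376, mt-Cytb at 5414, mt-Nd1 at 7845, mt-Nd2 at 2856, mt-Nd4 at 3829, mt-Nd5 at 2194, mt-Nd6 at 1367, mt-Atp6 at 6154 and mt-Atp8 at 933. In the same library 7 nuclear members were far below the others: Atp5b at 850.2 FPKM (others 896 to 899), Atp5d at 306, Cox7a2l at 129, Ndufa4 at 109.8, Ndufs1 at 49.2, Sdhb at 137 and Uqcrfs1 at 149. The cause was not tested, and without this library 2 of these members changed their call in a comparison of WMW-H with control, mt-Atp6 (-0.09, limma adjusted p = 0.000616) and Uqcrfs1 (0.11, adjusted p = 0.00119), and Cox7a2l did in WMW-H versus model (0.13, adjusted p = 0.000119).

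Single flags elsewhere were Atp5d in model replicate 2 at 440.2 FPKM, Cox6a2 in WMW-H replicate 4 at 1.296 FPKM (others at most 0.08), Cox7c in control replicate 2 at 269 FPKM, mt-Co2 in control replicate 2 at 6962 FPKM and Ndufa4l2 in control replicate 3 at 0.954 FPKM.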

How the results depend on the processing

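In model versus control, 3 nuclear subunits were higher and 47 lower, and 0 mitochondrial genes higher and 3 lower. Nuclear calls higher were 0 with size factors and 5 with a common total or a total without mitochondrial genes. Mitochondrial calls higher were 9 with the GC correction, 6 with quantile normalization, 2 with the compared groups alone and 1 with a common total, and calls lower were 1, 1 and, with size factors, 5. The mitochondrial median minus the nuclear one, 0.13, became 0.52 with the GC correction. In WMW-H versus model, nuclear calls lower went from 17 to 7 (GC correction) and 8 (size factors), mitochondrial calls lower from 0 to 1 with the GC correction and quantile normalization, and the difference of medians from 0.54 to 0.25 and 0.27. In WMW-H versus control, nuclear calls higher went from 18 to 28 with the total without mitochondrial genes. Over the named members and the other settings, 1524 values kept direction and side of the threshold, 64 newly passed it, 41 no longer passed it, 29 changed sign with a call in at least 1 of the settings compared and 52 changed sign or went to 0 without one. With size factors 10 uncalled values changed sign, among them mt-Co1, mt-Co2 and mt-Nd1 in model versus control.

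Libraries of the compared groups were left out 1 at a time. In model versus control this gave 2 to 3 nuclear subunits higher and 44 to 52 lower. It gave 0 to 0 mitochondrial genes higher, 2 to 3 lower and a difference of medians of 0.11 to 0.14. All WMW-H libraries, replicate 3 among them, stayed in those fits. With the compared groups alone, 2 mitochondrial genes were called higher and 4 lower. In WMW-H versus model the ranges were 32 to 46, 15 to 19, 11 to 11, 0 to 0 and 0.43 to 0.59, and in WMW-H versus control 14 to 23, 28 to 33, 11 to 11, 0 to 1 (1 without WMW-H replicate 3) and 0.48 to 0.64.

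Signs of called values (called as deposited or in the alternative) that turned with the GC correction were, in model versus control, Ndufa4 (0.15), mt-Atp6 (0.33), mt-Co3 (0.066), mt-Cytb (0.27) and mt-Nd4 (0.44); in WMW-H versus model, Cox4i1 (0.063), Cox5b (0.057), Cox6a1 (0.12), Cox8a (0.12), Ndufa4 (-0.25), Ndufb7 (0.064), Uqcrb (-0.0008) and mt-Atp6 (-0.19); and in WMW-H versus control, Atp5pb (-0.0071), Cox4i1 (0.0029), Ndufa4 (-0.10), Uqcrc2 (-0.12) and mt-Atp6 (0.15). With size factors, in model versus control, Atp5g2 (-0.10) and Ndufa6 (-0.0104) turned. With quantile normalization, Atp5b (0.20), Cox4i1 (0.19), Cox6a1 (0.0277), Cox8a (0.0522), mt-Atp6 (0.34), mt-Co3 (0.0292), mt-Cytb (0.22) and mt-Nd4 (0.50) turned in model versus control, and mt-Atp6 (-0.37) in WMW-H versus model. The cause was not tested.

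Replicate numbers showed no sign of pairing the samples (correlations of same-numbered libraries -0.047 to 0.03, and the own number correlated best in 3 of 30 cases). This does not exclude pairing. A replicate block gave 51 nuclear subunits lower and 3 higher in model versus control, 40 higher and 18 lower in WMW-H versus model, and 19 higher and 31 lower in WMW-H versus control. With the replicate block mt-Atp6 lost its call in model versus control (adjusted p = 0.0564) and Cox6b1 gained one in WMW-H versus model (0.0456), and no other named member changed its call. Among the mitochondrial genes, mt-Atp8, mt-Nd3 and mt-Nd4l rested on the fewest fragments (1700 to 3700, 2100 to 6500 and 2300 to 4600 per library). Depth also limits nuclear members of low FPKM, such as the minor isoforms and Ndufaf4.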
